A study of Homo sapiens with 18 samples.

Results

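CpG-poor promoters, here those with a window low in GC or in CpG, were followed in an ATAC-seq table of 6 ovarian cancer cell lines. No annotation of CpG islands was used, so a member may overlap an island. In ATAC-seq the transposase Tn5 cuts and tags DNA where chromatin is open, and the table gives FPKM (reads scaled to window length and to the total of the library) in windows of 1 kb on hg19. Members were the windows whose centre lay within 500 bp of the canonical start of a protein-coding gene on chromosomes 1 to 22 and whose sequence had a GC content of 50% or less or an observed to expected CpG ratio of 0.6 or less. The rule used sequence and position and no measured value. It found 2711 of the 89428 windows (3.03%), reached by the starts of 2638 genes. They made up 20.05% of the 13523 promoter windows in the table, and the other 10812 were CpG-rich. Of the members, 553 were low in GC alone, 1596 low in the CpG ratio alone and 562 low in both measures.

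There were 3 libraries per line and no drug treatment named in the labels, and each platinum-resistant line was paired with the sensitive one it is related to: A2780 with CP70, a derivative selected in culture, PEA1 with PEA2, and PEO1 with PEO4. PEA1 and PEA2 came from 1 patient, as did PEO1 and PEO4, before and after clinical resistance, so each condition of a pair is 1 line. All lines were grown in RPMI medium with serum. Nothing in the labels says that the libraries of a line came from separate cultures, so p-values measure the spread between libraries, which may be technical. The labels call A2780 and CP70 endometrial or ovarian. Of the markers examined, the windows of the epithelial genes EPCAM, KRT8, KRT18, KRT19 and CDH1 had line means of 0.681 to 0.883 FPKM in A2780. They were at 1.09 to 1.99 in CP70, 0.971 to 2.57 in the PEA lines and 3.03 to 11.8 in the PEO lines. Those of the ovarian serous markers PAX8, WT1 and WFDC2 were at 0.61 to 1.1 FPKM in A2780 and 0.9 to 1.49 in CP70. In the PEA lines they were at 1.97 to 5.65 and in the PEO lines at 5.6 to 20.6, and no MUC16 start is listed. The median of all windows was itself 0.682 FPKM in A2780, 2.85 in PEO1 and 2.24 in PEO4, so these levels carry an offset of the whole library. None of the 5 blood marker starts is listed in the table. Of the fibroblast markers COL1A2 is listed, at 0.417 to 2.17 FPKM, and of the endothelial markers KDR, at 0.855 to 2.91 FPKM.

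The libraries held 8963079 to 60435027 reads. The share of reads inside the 89428 windows was 38.9% to 40.8% in PEO1 and 32.9% to 35.9% in PEO4, 17.1% to 20.7% in PEA2 and 12.9% to 16.8% in PEA1, and 11.8% to 15.6% in CP70 and 8.38% to 10.04% in A2780. A level in FPKM is scaled to the whole library, so it is high throughout in the PEO lines and low throughout in A2780, and changes are given beside the median of all windows. The median member had 28 to 89 reads in a library. In material of many cells, a site open in fewer cells and a site less open in each cell cannot be told apart.

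Most vertebrate promoters sit in CpG islands, stretches rich in unmethylated CpG that tend to be open in all cell types. CpG-poor promoters have lost most CpG by deamination of methylated cytosine. They are known for serving genes used in a particular tissue or state, such as those of the epidermis, of secreted proteases and of immune signals, and for relying more often on the TATA element, which binds TBP about 30 bases before the start. AP-1, a dimer of FOS and JUN proteins, binds TGANTCA, and CCAAT is bound by NF-Y, which also acts at many histone promoters. CCGGAAG is a site type of the ETS factors, which are common at housekeeping promoters.

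Sequences of 8 promoters show the range within the class. All are on hg19, are written on the strand of the gene, end 1 base before the canonical start, and carry the motif matches in capitals. The first 3 were chosen because they hold TATAAA and TGANTCA and were called more accessible in PEA2 than in PEA1. They belong to SPRR2D and IVL, proteins of the cornified envelope of the epidermis, and to FAM25A.
SPRR2D, chr1:153013597-153013846, minus strand: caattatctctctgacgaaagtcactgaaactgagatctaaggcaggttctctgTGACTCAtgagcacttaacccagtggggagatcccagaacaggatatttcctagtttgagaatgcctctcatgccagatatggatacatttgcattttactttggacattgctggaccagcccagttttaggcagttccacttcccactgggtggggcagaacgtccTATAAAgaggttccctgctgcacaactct
IVL, chr1:152880772-152881021, plus strand: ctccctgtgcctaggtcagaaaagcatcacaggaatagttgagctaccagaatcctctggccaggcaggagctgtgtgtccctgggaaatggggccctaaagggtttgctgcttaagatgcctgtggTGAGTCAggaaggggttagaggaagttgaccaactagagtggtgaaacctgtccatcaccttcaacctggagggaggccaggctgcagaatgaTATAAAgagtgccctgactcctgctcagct
FAM25A, chr10:88779801-88780050, plus strand: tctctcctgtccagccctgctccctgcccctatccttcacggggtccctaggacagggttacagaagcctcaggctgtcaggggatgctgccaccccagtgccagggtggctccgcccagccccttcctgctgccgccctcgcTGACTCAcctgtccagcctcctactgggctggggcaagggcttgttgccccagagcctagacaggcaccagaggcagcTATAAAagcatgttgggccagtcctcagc
The second set is that of the histone genes H2BC3 and H3C3, among the members that stood highest in PEO4, and of PRDM9, a germline methyltransferase whose window stood highest in A2780 and CP70. Capitals mark TATAAA and CCAAT, or ATTGG, its complement.
H2BC3, chr6:26043942-26044041, minus strand: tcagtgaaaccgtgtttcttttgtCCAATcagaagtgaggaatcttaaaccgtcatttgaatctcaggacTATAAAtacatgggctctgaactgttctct
H3C3, chr6:26045512-26045611, plus strand: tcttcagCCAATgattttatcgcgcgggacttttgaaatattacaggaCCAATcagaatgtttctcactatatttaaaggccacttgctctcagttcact
PRDM9, chr5:23507618-23507717, plus strand: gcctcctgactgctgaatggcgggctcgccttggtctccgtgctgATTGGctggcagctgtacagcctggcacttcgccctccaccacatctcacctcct
The last set is from members with the most even level over the 6 lines, KCTD16 and THG1L, where capitals mark CTTCCGG, the complement of CCGGAAG.
KCTD16, chr5:143550337-143550436, plus strand: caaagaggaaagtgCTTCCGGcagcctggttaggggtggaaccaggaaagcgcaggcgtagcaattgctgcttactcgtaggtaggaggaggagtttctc
THG1L, chr5:157158328-157158427, plus strand: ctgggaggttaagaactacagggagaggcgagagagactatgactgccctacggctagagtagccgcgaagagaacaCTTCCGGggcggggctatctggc
In SPRR2D the TATAAA started 29 bases and the TGANTCA 196 bases before the gene's start, in IVL 30 and 123 bases, and in FAM25A 29 and 107 bases. H2BC3 had TATAAA 30 bases and CCAAT 76 bases before its start.

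CpG-poor promoters were fewer and less widely open than CpG-rich ones. The nearest window of the tiling grid was CpG-poor at 7039 canonical starts, of which 2329 (33.1%) are in the table, against 10709 of 11604 (92.3%) for CpG-rich starts. The values show that each listed window passed 2 FPKM in 2 libraries or more. The same level was used to call a window open in a line, from the mean of its 3 libraries. Of the 2711 members, 486 (17.9%) were open in all 6 lines, 450 (16.6%) in 1 line and 74 in none. Among CpG-rich promoters, 47.2% were open in all 6 lines and 4.01% in 1 line. Among 50797 CpG-poor windows more than 5 kb from any start, 0.406% were open in all 6 lines and 50.7% in 1 line. By these shares the members lay between the other classes, and no test is given because neighbouring windows are not independent. The shares also depend on level: the median in A2780 was 1.28 FPKM for members and 2.20 for CpG-rich promoters. The median log2 range from the lowest to the highest line mean was 2.26 in members, 2.23 in CpG-rich promoters and 2.94 in the distal windows. After scaling each library to a common median it was 1.80, 1.78 and 2.29. By this range members stood near CpG-rich promoters.

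**Figure D1:**
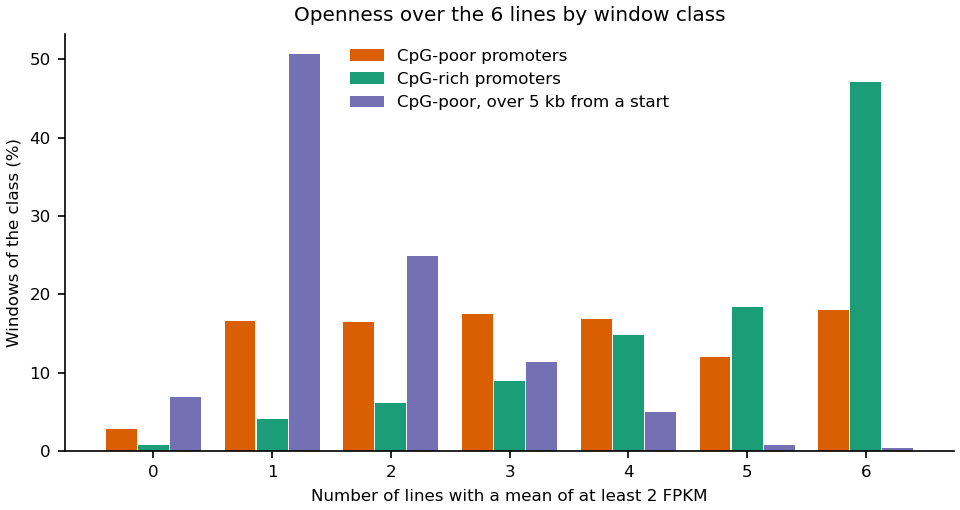
Share of windows (vertical axis, % of the class) by the number of lines in which the mean of 3 libraries was at least 2 FPKM (horizontal axis), for 2711 CpG-poor promoters, 10812 CpG-rich promoters and 50797 CpG-poor windows more than 5 kb from a start. The bars of the CpG-poor promoters are nearly level from 1 to 4 lines, while 47.2% of CpG-rich promoters stand at 6 lines and 50.7% of the distal windows at 1 line.

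Within the class, openness differed with both parts of the rule. Of members low in GC alone, 32.4% were open in all 6 lines, of those low in the CpG ratio alone 16.1%, and of those low in both 8.90%. The share of members open in 1 line ran the other way, at 6.51%, 17.1% and 25.1%. Just inside the limit of the CpG ratio, from 0.58 to 0.6, 28.6% of 213 members with GC above 52% were open in all 6 lines, and just outside it, to 0.62, 31.0% of 268 promoter windows. Just inside the limit of GC, from 49% to 50%, the share was 40.3% of 134 members with a CpG ratio above 0.62, and just outside it, to 51%, 28.8% of 160 windows. With 1 FPKM as the level, 53.0% of members were open in all 6 lines, and after scaling each library to a common median 21.8%.

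Over lines, the median member stood at 4.42 FPKM in PEO1 and 4.13 in PEO4, at 2.11 in PEA1 and 2.07 in PEA2, and at 1.92 in CP70 and 1.28 in A2780. Library medians of PEO1 ranged from 4.35 to 4.54 and those of PEO4 from 3.94 to 4.27. Those of PEA1 ranged from 1.73 to 2.34, of PEA2 from 1.91 to 2.2, of CP70 from 1.68 to 2.27 and of A2780 from 1.14 to 1.37. CP70, PEA1 and PEA2 overlapped in these values, and each PEO line was above every library of the other 4 lines. PEO1 was the line with the highest mean for 1309 members and PEO4 for 926. After scaling to a common median CP70 led with 1003, PEO4 had 594 and PEO1 328, so this order rests on the scaling. The window open in 1 line was most often in PEO1 (164 members), followed by PEA2 (95), PEO4 (79), CP70 (61), PEA1 (50) and A2780 (1). On the common median this order also changed, to PEA1 (69), PEA2 (65), CP70 (63), PEO1 (44), PEO4 (36) and A2780 (26), and at 1 FPKM PEA2 had 21 and PEO1 17.

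The member with the highest line mean, named after its values were seen, held the start of PDCD10, a protein of blood vessel integrity that shares its promoter with SERPINI1. PDCD10 stood at 131 ± 6.87 FPKM (SD, n = 3) in PEO1, 42.8 ± 3.98 in PEO4 and 12.9 ± 2.57 in A2780. The adjacent window, assigned to SERPINI1, a neuronal serpin, overlaps its edge.

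A ratio taken inside a library does not depend on the library total. The summed FPKM of members, as a percentage of that of CpG-rich promoters, was 15.5% ± 0.31 (SD, n = 3) in A2780 and 14.6% ± 0.46 in CP70, 15.3% ± 0.11 in PEA1 and 18.4% ± 0.22 in PEA2, and 15.3% ± 0.18 in PEO1 and 13.8% ± 0.27 in PEO4. The PEA2 libraries, at 18.2% to 18.6%, stood above all others, and the PEO4 libraries, at 13.5% to 14.1%, overlapped with CP70 at 14.1% to 14.9%. Within each pair the libraries did not overlap, with a difference of 3.08 percentage points for PEA2, -1.47 for PEO4 and -0.90 for CP70. The exact two-sided permutation test gave p = 0.1 in each pair, the smallest that 3 against 3 libraries allow. The same ratio for CpG-poor windows more than 5 kb from a start was 261% ± 8.11 in PEA2 and 133% ± 6.95 in PEA1.

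**Figure D2:**
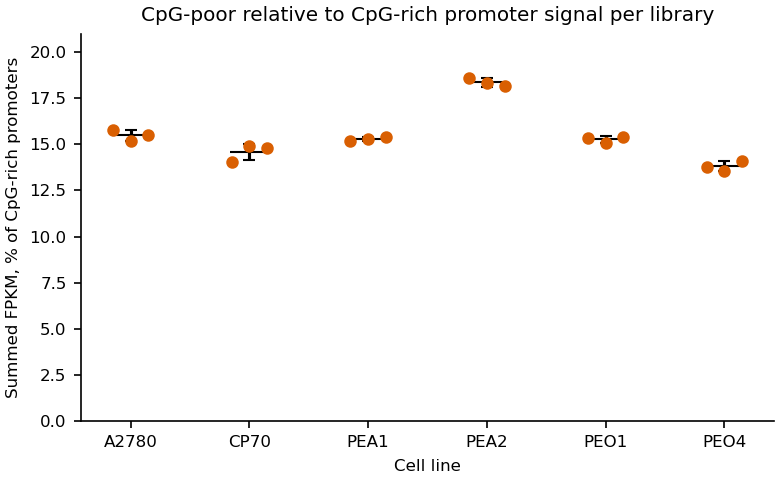
Summed FPKM of the 2711 CpG-poor promoter windows as a percentage of that of the 10812 CpG-rich promoter windows (vertical axis) in each library (points) of the 6 lines (horizontal axis), with the mean and SD of 3 libraries as a bar. The PEA2 libraries sit at 18.2% to 18.6%, above all other libraries, and those of PEO4 at 13.5% to 14.1%.

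Each resistant line was compared with its sensitive partner with limma on log2(FPKM + 0.1), over all windows with a mean above 1 FPKM in the pair. A window was called at a log2 fold change above 2 in size and a Benjamini-Hochberg adjusted p below 0.001. On this scale the fold change of a low window is understated. The filter left out 179 members of the PEO pair, 276 of the PEA pair and 729 of the A2780 pair. A member that passed it only through the line where it is high had to differ, so the counts below describe the tested members.

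In the A2780 pair, 8 of 1982 members tested (0.404%) were called higher in CP70 and 3 (0.151%) lower, against 0.428% and 0.369% of all windows tested. The median log2 fold change of members was 0.56 and that of all windows 0.59. In the PEA pair, 88 of 2435 members (3.61%) were called higher in PEA2 and 17 (0.698%) lower, against 11.2% and 1.42% of all windows, with medians of -0.06 and 0.31. In the PEO pair, 21 of 2532 members (0.829%) were called higher in PEO4 and 44 (1.74%) lower, against 2.72% and 5.78%, with medians of -0.14 and -0.30. The share of members called was below that of all windows in the PEA and PEO pairs and among windows lower in CP70. For higher in CP70 the gap was less than 1 window, and it turned around without CP70 replicate 1 (0.205% of members and 0.193% of all windows), without CP70 replicate 2 (0.507% and 0.498%) and with no filter (0.295% and 0.191%). In every pair and direction the share of members was above that of CpG-rich promoters. For lower in PEA2 the gap was small, at 0.698% and 0.641%, and for lower in CP70 the share rests on 3 members. This order was not examined under other settings. Of CpG-rich promoters, 0.216% were called higher and 0.488% lower for PEO4, 0.594% and 0.641% for PEA2, and 0.147% and 0.0685% for CP70.

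The calls differed between the parts of the class. In PEA2, 10.1% of members low in GC and in the CpG ratio were called higher, against 2.42% of those low in the ratio alone and 0.973% of those low in GC alone, and 20.4% of CpG-poor windows more than 5 kb from a start. In PEO4, 3.64% of them were called lower, against 1.51% and 0.546%, and 9.16% of the distal windows. Among windows higher in PEO4 the order was another, with 1.16% of members low in the ratio alone, 0.575% of those low in both, 0.182% of those low in GC alone and 4.35% of the distal windows. The balance of higher and lower calls changed with scaling. After each library was scaled to a common median, 1.52% of members were called higher in PEA2 and 1.56% lower, where all windows gave 6.91% and 2.72%. In PEO4 it became 1.501% higher and 1.07% lower, where all windows gave 4.19% and 3.25%. In CP70 it became 0.05045% higher and 0.303% lower, where all windows gave 0.108% and 0.63%. Removal of the trend with GC gave 1.89% higher and 2.38% lower in PEA2.

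**Figure D3:**
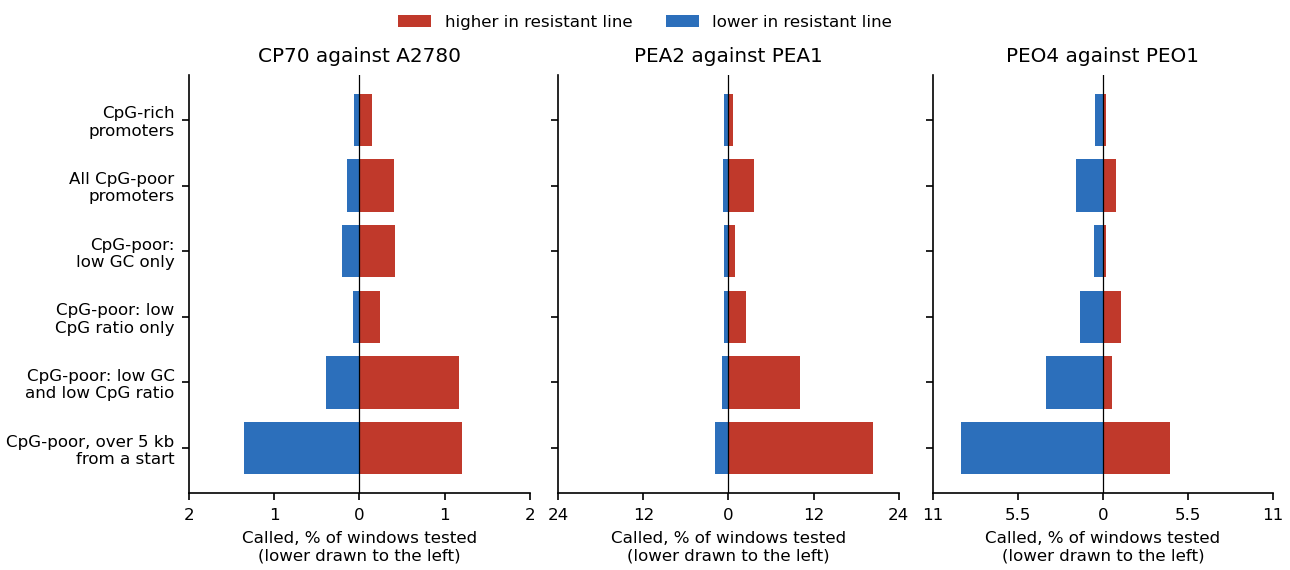
Windows called higher (red, right) or lower (blue, left) in the resistant line as a percentage of the windows tested (horizontal axis, scaled separately for each pair) for 6 classes of window (vertical axis). In each panel the distal CpG-poor windows have the longest bars, and among CpG-poor promoters those low in GC and in the CpG ratio have longer bars toward higher in CP70 and PEA2 and toward lower in PEO4.

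The promoters named for gains in CP70 were those of MUC15, VWDE, TM4SF1 and ULBP2. MUC15, a membrane mucin (chr11:26593200-26594200), had 0.453, 0.383 and 0.479 FPKM in the A2780 libraries and 6.52, 3.41 and 2.97 in those of CP70 (log2 fold change 2.95, SE 0.25, adjusted p = 4.74e-28). The CP70 libraries of MUC15 were also above all 12 of the PEA and PEO lines, of which PEO1 was highest at 2.43, 2.88 and 1.78. TM4SF1, a tetraspan membrane protein (chr3:149094900-149095900), rose from 0.575, 0.608 and 0.397 to 3.86, 2.21 and 2.81 (log2 fold change 2.27, SE 0.26, adjusted p = 7.09e-16). Its level in CP70 remained below that in PEO1, at 18.7, 20.2 and 18.5. VWDE, with von Willebrand and EGF domains (chr7:12443400-12444400), rose from 1.24, 1.4 and 1.47 to 11, 6.76 and 5.91 (log2 fold change 2.39, SE 0.28, adjusted p = 6.86e-15). ULBP2, a ligand of the natural killer cell receptor NKG2D (chr6:150263100-150264100), rose from 0.471, 0.406 and 0.529 to 2.95, 1.86 and 2.39 (log2 fold change 2.12, SE 0.28, adjusted p = 2.43e-12). In all 8 members called higher, replicate 1 was the highest CP70 library, and without it 0.205% of the members tested were called higher and ULBP2 was at 1.96. On the common median, MUC15 stayed called at 2.37, and VWDE, TM4SF1 and ULBP2 were at 1.82, 1.69 and 1.54.

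Among the 3 members lower in CP70 were the promoters of GCA and ZNF254. GCA, the calcium-binding protein grancalcin (chr2:163199700-163200700), fell from 2.39, 3.09 and 2.6 FPKM in A2780 to 0.455, 0.479 and 0.628 in CP70 (log2 fold change -2.17, SE 0.26, adjusted p = 3.54e-14). ZNF254, a KRAB-type zinc finger protein (chr19:24269400-24270400), fell from 2.53, 3.4 and 2.61 to 0.379, 0.658 and 0.879 (log2 fold change -2.04, SE 0.26, adjusted p = 2.46e-13). Again the libraries of each pair did not overlap, and CP70 was the lowest of the 6 lines for both genes. With each library at a common median the changes were -2.75 for GCA and -2.62 for ZNF254. Leaving out CP70 replicate 1 or A2780 replicate 2 ended the call of ZNF254, at -1.76 and -1.91.

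In PEA2 the largest gains were at promoters that were closed in PEA1. TMEM232, a transmembrane protein (chr5:110061900-110062900), rose from 0.0961, 0.0935 and 0.192 FPKM, which are 3, 3 and 4 reads, to 5.83, 4.05 and 4.44 (log2 fold change 4.43, SE 0.29, adjusted p = 4.88e-50). NLRP10, of the NOD-like receptor family (chr11:7986600-7987600), rose from 0.32, 0.156 and 0.144 to 5.44, 3.81 and 5.15 (log2 fold change 4.03, SE 0.27, adjusted p = 5.95e-47). The PEA2 libraries of NLRP10 were above all 15 others, of which the highest was 1.22 in PEO1. PRSS1, the cationic trypsinogen (chr7:142456500-142457500), rose from 0.513, 0.498 and 0.24 to 9.67, 6.53 and 7.23 (log2 fold change 3.97, SE 0.24, adjusted p = 4.13e-59). It lies among near-identical trypsinogen copies, so its reads are uncertain. PTN, the heparin-binding growth factor pleiotrophin (chr7:137027700-137028700), rose from 0.897, 0.748 and 0.719 to 11.9, 9.42 and 9.05 (log2 fold change 3.52, SE 0.23, adjusted p = 1.12e-50). Levels like those of PEA2 were present in PEO1, at 11.3, 11.1 and 12.5 for PTN. With the median of all windows of the same 5 Mb removed, these changes were 2.04, 2.93, 2.48 and 2.27, so all 4 stayed called.

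The promoters that fell most in PEA2 stood highest in PEA1. SERPINF2, the plasmin inhibitor alpha-2-antiplasmin (chr17:1645200-1646200), fell from 6.12, 6.54 and 4.79 to 0.55, 1.04 and 0.532 (log2 fold change -2.92, SE 0.24, adjusted p = 2.52e-33). MRPL28, a mitochondrial ribosomal protein (chr16:420300-421300), fell from 8.68, 7.88 and 6.19 to 0.879, 1.16 and 0.887 (log2 fold change -2.83, SE 0.23, adjusted p = 3.76e-33). ALG1, a mannosyltransferase of N-glycosylation (chr16:5121000-5122000), fell from 5.09, 4.21 and 4.17 to 0.44, 0.694 and 0.577 (log2 fold change -2.79, SE 0.24, adjusted p = 1.16e-28). ENSG00000289761, a gene with no symbol (chr4:41144400-41145400), fell from 3.04, 2.93 and 1.92 to 0.714, 0.231 and 0.266 (log2 fold change -2.53, SE 0.28, adjusted p = 2.69e-18). For these 4 genes every PEA1 library was above those of PEA2, and PEA1 had the highest mean of the 6 lines. With the median of the surrounding 5 Mb removed the changes were -1.50 for SERPINF2, -1.10 for MRPL28, -2.04 for ALG1 and -2.06 for ENSG00000289761, and the first pair lost the call.

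In PEO4 the members that rose most had few reads in PEO1. ZNF69, a zinc finger protein (chr19:11997900-11998900), rose from 0.304, 0.349 and 0.334 FPKM to 5.23, 6.67 and 5.58 (log2 fold change 3.78, SE 0.25, adjusted p = 9.63e-16). SLC39A4, the zinc importer ZIP4 (chr8:145641600-145642600), rose from 0.607, 0.174 and 0.669 to 4.77, 5.71 and 4.73 (log2 fold change 3.28, SE 0.29, adjusted p = 1.85e-12). WDR97, a WD-repeat protein (chr8:145161900-145162900), was at 0.101, 0.436 and 0.111 in PEO1, which are 1, 5 and 1 reads, and at 2.5, 1.97 and 2.49 in PEO4 (log2 fold change 3.08, SE 0.39, adjusted p = 1.27e-08). ATP5MC3, a subunit of the ring of mitochondrial ATP synthase (chr2:176046300-176047300), had the same 1, 5 and 1 reads in PEO1 and 2.15, 2.45 and 2.14 FPKM in PEO4 (log2 fold change 3.05, SE 0.39, adjusted p = 1.81e-08). For WDR97 and ATP5MC3 it was PEO1 that stood apart, since the other 4 lines were at 0.827 to 3.64 FPKM. With the median of the surrounding 5 Mb removed, ZNF69 was at 3.38 and ATP5MC3 at 2.39, and SLC39A4 and WDR97 were at 1.77 and 1.58 and lost the call.

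The members that fell most in PEO4 stood highest in PEO1. NPFFR2, a receptor of neuropeptide FF (chr4:72897300-72898300), fell from 7.08, 6.98 and 6.02 to 0.233, 0.288 and 0.249 (log2 fold change -4.25, SE 0.25, adjusted p = 5.12e-17). SCG5, the neuroendocrine chaperone secretogranin V (chr15:32933700-32934700), fell from 7.18, 6.98 and 7.13 to 0.291, 0.24 and 0.399 (log2 fold change -4.15, SE 0.24, adjusted p = 3.54e-17). The other 4 lines had 0.173 to 0.838 FPKM at SCG5. ZNF727, a zinc finger protein (chr7:63505800-63506800), fell from 9.21, 9.77 and 10.0 to 0.639, 0.768 and 0.598 (log2 fold change -3.67, SE 0.19, adjusted p = 1.24e-18). ADAM28, a membrane metalloprotease (chr8:24151500-24152500), had 2.02, 2.36 and 1.89 in PEO1 and 3 reads or fewer in every PEO4 library, which is at least 13.4-fold lower against a floor of 3 reads per library. NPFFR2, SCG5 and ZNF727 stayed called with the 5 Mb median removed, at -2.89, -3.08 and -3.25.

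Calls in more than 1 pair were counted over the members tested in both pairs. Of 1881 members tested in the A2780 and PEA pairs, 1 was called in both (0.0532%, and 0.0357% of all windows), DMRT2, a doublesex-related transcription factor (chr9:1049400-1050400). DMRT2 rose from 0.628, 0.451 and 0.479 in A2780 to 2.73, 2.1 and 2.3 in CP70, and from 0.769, 1.25 and 0.623 in PEA1 to 6.38, 4.1 and 5.32 in PEA2. Its log2 fold changes were 2.002 and 2.48, and the first lost the call without A2780 replicate 2, A2780 replicate 3 or CP70 replicate 1, at 1.92, 1.96 and 1.90, and on the common median, at 1.42. None of 1880 members was called in both the A2780 and PEO pairs, where all windows gave 0.021%. Of 2291 tested in the PEA pair and also in the PEO pair, 6 were called in each (0.262%, and 1.44% of all windows). ZSWIM2, a zinc finger protein (chr2:187713000-187714000), was higher in both, from 0.352, 0.343 and 0.432 to 5.0, 2.6 and 2.88 and from 0.506, 0.349 and 0.334 to 1.98, 1.97 and 2.49. No member was called in 3 pairs, and 174 members were called in at least 1. Neither was counted over all windows, so nothing particular to members is read from them. The 3 pairs share no library.

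The other 5 rose in PEA2 and fell in PEO4, and they are named for this after their values were seen. The directions of shared calls were not counted over all windows. Of all windows 11.2% were called higher in PEA2 and 5.78% lower in PEO4, so the split is not read as particular to members. The 5 were PTN, ADGRF4, an adhesion G protein-coupled receptor, COL22A1, a collagen, CATSPERE, a subunit of the sperm calcium channel, and PRSS37, a trypsin-like protein. COL22A1 went from 1.09, 0.872 and 1.68 FPKM in PEA1 to 9.01, 7.34 and 8.03 in PEA2, and from 10.4, 11.2 and 11.6 in PEO1 to 1.69, 1.73 and 1.89 in PEO4. In A2780 and CP70 it had 0.606 to 0.926 FPKM. PRSS37 went from 0.384, 0.343 and 0.288 to 3.19, 1.73 and 1.73, and from 5.46, 5.67 and 6.58 to 0.698, 1.1 and 0.548. PEA2 and PEO1 were the lines in which all 5 stood highest. Their opposite calls fix a difference between the pairs, which was 4.53 to 5.70 on the log2 scale. Over all members the test of the difference between the changes in the PEA and PEO pairs called 255 of 2630 (9.70%) as more positive in the PEA pair and 112 (4.26%) as more negative, where all windows gave 21.996% and 4.56%.

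Each line was then set against the mean of the other 5 lines over all 18 libraries, with no filter. Among all windows, the median difference was 1.20 in PEO1 and 0.83 in PEO4, 0.07 in PEA2 and -0.34 in PEA1, and -0.65 in CP70 and -0.98 in A2780, which is the offset of the whole library. Of the members, 0.0369% were called higher in A2780 and 0.221% in CP70, 0.590% in PEA1 and 1.73% in PEA2, and 11.9% in PEO1 and 7.12% in PEO4. In the same order all windows gave 0.209%, 0.328%, 1.4%, 7.07%, 21.8% and 11%. On the common median members were at 0.590%, 2.47%, 1.03%, 0.812%, 0.701% and 1.33%, where all windows gave 0.857%, 2.3%, 2.12%, 3.98%, 3.06% and 2.6%, so the lead of the PEO lines ended with the offset. The contrasts share libraries, and each is given as its own value.

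**Figure D4:**
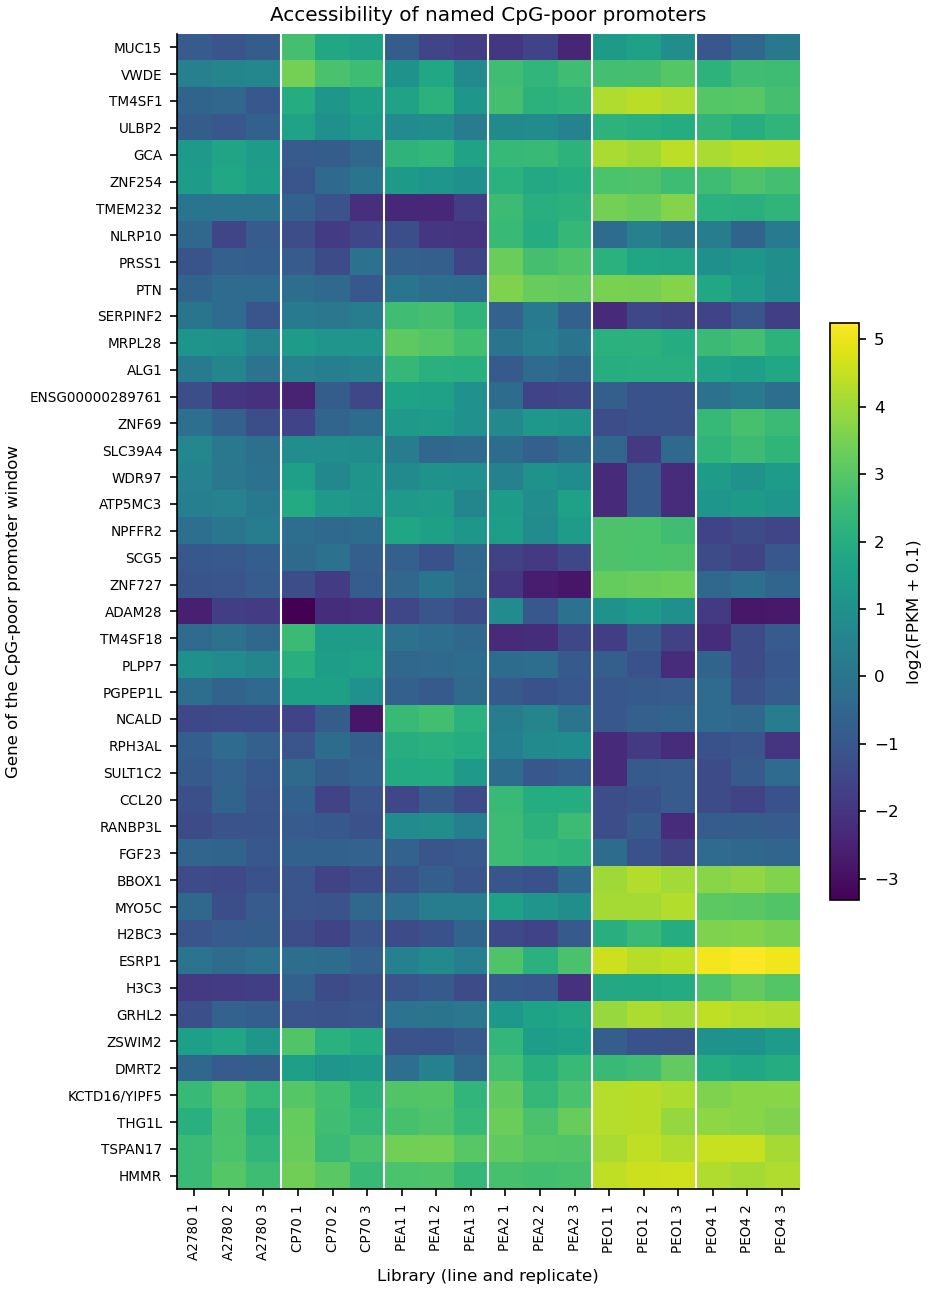
Accessibility as log2(FPKM + 0.1) (colour) of 43 CpG-poor promoter windows named for a pair, a line or an even level (rows) in the 18 libraries (columns, 3 per line, white lines between lines). Blocks of 3 high libraries stand out for CP70 at TM4SF18, for PEA1 at NCALD, for PEA2 at CCL20 and for PEO1 at SCG5, and the bottom 4 rows are high in all libraries.

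In CP70, TM4SF18, the neighbour of TM4SF1 (chr3:149050800-149051800), had 5.61, 2.51 and 2.6 FPKM, above all 15 other libraries, which reached at most 0.834. PLPP7, of the lipid phosphatase family, had 4.09, 2.63 and 2.89, and PGPEP1L, a peptidase-like gene, 2.8, 2.81 and 1.93. Their differences to the mean of the other lines were 2.86, 2.18 and 2.13, and 3.70, 3.02 and 2.96 on the common median. PLPP7 lost the call without CP70 replicate 1, at 1.997. In PEA1, NCALD, the calcium sensor neurocalcin delta (chr8:102802500-102803500), had 5.51, 6.23 and 4.36 FPKM. RPH3AL, a Rab effector of exocytosis (chr17:201600-202600), had 3.97, 4.21 and 3.88, and SULT1C2, a sulfotransferase (chr2:108904500-108905500), had 3.72, 3.77 and 2.4. These were 3.2, 2.88 and 2.6 above the other lines, and SERPINF2 was 3.33 above them.

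Besides NLRP10, the windows named for PEA2 against the other lines were those of CCL20, FGF23 and RANBP3L. CCL20, the chemokine that attracts CCR6-bearing lymphocytes (chr2:228678300-228679300), had 5.44, 3.87 and 3.82 FPKM in PEA2, and no other library passed 0.586 (difference 3.29, SE 0.25, adjusted p = 1.28e-16). FGF23, a hormone of phosphate balance (chr12:4488300-4489300), had 5.77, 5.03 and 4.7, with the other 15 libraries at or below 0.708. RANBP3L, a Ran-binding protein (chr5:36301500-36302500), had 5.83, 4.45 and 5.81, and PEA1 followed at 1.67, 1.78 and 1.2. The differences of FGF23 and RANBP3L were 3.13 and 3.2, and with the 5 Mb median removed 2.25 and 1.22.

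In PEO1, BBOX1, the last enzyme of carnitine synthesis (chr11:27062100-27063100), had 16.3, 18.9 and 16.5 FPKM and in PEO4 13, 14.3 and 12.3, while the other 12 libraries had at most 0.666. MYO5C, an unconventional myosin of secretory epithelia (chr15:52587900-52588900), had 17, 17 and 19.1 in PEO1 and 8.31, 8.25 and 7.42 in PEO4. PEO4 stood highest at 2 histone windows and at ESRP1 and GRHL2, a splicing regulator and a transcription factor of epithelial cells. ESRP1 (chr8:95652900-95653900) had 34.4, 37.9 and 33.5 FPKM in PEO4, 24.1, 20.2 and 21.6 in PEO1 and 7.36, 4.39 and 6.79 in PEA2, and at most 1.56 in the libraries of A2780, CP70 and PEA1. GRHL2 (chr8:102503700-102504700) had 21.5, 19.6 and 18.6 in PEO4 and 15.1, 18.4 and 16.5 in PEO1. On the common median the differences to the other lines were 3.10 for BBOX1 and 2.47 for MYO5C in PEO1, and 2.97 for ESRP1 and 2.83 for GRHL2 in PEO4.

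No member was highest in A2780 with all 3 libraries above the 15 others and a call. The 1 member called higher in A2780 was PRDM9, which marks recombination sites in germ cells (chr5:23507100-23508100). PRDM9 had 4.29, 5.86 and 4.83 FPKM in A2780 and 5.61, 4.91 and 3.85 in CP70, which overlapped, and at most 1.24 in the other 12 libraries. Its difference to the other 5 lines was 2.69 for A2780 and 2.61 for CP70, and 3.83 and 3.45 on the common median.

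At the other end, 18 members had a mean of at least 5 FPKM in every line, and among the 5 with the smallest range were KCTD16/YIPF5, THG1L, TSPAN17 and HMMR. The window between KCTD16, a subunit of GABA-B receptors, and YIPF5, a Golgi protein, had line means of 6.03 to 19.3 FPKM. THG1L, which modifies histidine tRNA, ranged from 5.07 to 18, and HMMR, a hyaluronan receptor of the mitotic spindle, from 6.42 to 23.3. In each of these the PEO libraries were the highest, as in the whole class.

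Genes were also grouped by known role, with each list counted in full. The lists were drawn up with earlier results of these data known, and they carry no test of their own. Their counts stand beside the share of all windows called, and nothing particular to a list is read from them. Among 22 windows of epithelial keratins and junction genes, 4 were called higher and none lower of 15 tested in PEA2, and 2 were called lower of 22 in PEO4. These are 26.7% and 9.09%, where all windows gave 11.2% and 5.78%. PRSS8, the epithelial protease prostasin (chr16:31146300-31147300), rose from 0.609, 0.405 and 0.623 to 6.48, 6.18 and 6.21 FPKM (log2 fold change 3.33, SE 0.24, adjusted p = 2.89e-42). ESRP1 rose from 1.25, 1.56 and 1.2 to 7.36, 4.39 and 6.79, with a log2 fold change of 2.10 that fell to 1.73 on the common median and to 1.96 without PEA2 replicate 1. EVPL, the cornified envelope protein envoplakin (chr17:74023200-74024200), had 15.2 to 24.8 FPKM in the PEO lines and at most 3.46 elsewhere. The median log2 fold change of the list was 1.27 in PEA2, where all windows had 0.31, and -0.32 in PEO4, where all windows had -0.30.

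Of 24 windows of ovarian and serous tumour markers, 16 were tested in PEA2, where 2 were called higher, and 21 in PEO4, where 1 was called lower. The first is 12.5% and the second 4.76%, against 11.2% and 5.78% of all windows. Against the other lines, 8 (33.3%) were called higher in PEO1 and 8 in PEO4, where all windows gave 21.8% and 11% before the offset was removed. ESR1, the oestrogen receptor alpha (chr6:152127900-152128900), had 7.32 to 8.36 FPKM in the PEO libraries and at most 1.48 in the others. KLK6 and KLK8, kallikrein proteases, and MSLN, mesothelin, shared this pattern. MSLN (chr16:810000-811000) had 12 to 17.5 FPKM in the PEO libraries and at most 2.64 elsewhere, and KLK6 had 10.0 to 13.0 and at most 2.36. On the common median ESR1 and MSLN were 2.04 and 1.99 above the other lines in PEO4, so that MSLN lost the call.

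Of 24 windows of matrix genes, 20 were tested in the PEA pair and 1 was called higher in PEA2, against 11.2% of all windows and 3.61% of members, and none of 18 in CP70 and 23 in PEO4. The 1 called was SPARC, a matrix-binding glycoprotein (chr5:151065900-151066900), which rose from 0.641, 0.779 and 0.719 to 4.67, 2.89 and 4.93 (log2 fold change 2.36, SE 0.24, adjusted p = 2.98e-21) and was at 1.99 on the common median. The value of SPARC with the 5 Mb median removed is not given here. CCN3 (chr8:120428100-120429100), a matricellular signal, had 4.10 to 8.16 FPKM in the PEA lines, 22.5 to 28.3 in the PEO lines and 0.503 to 0.901 in A2780 and CP70. CALD1, caldesmon, and COL8A1, a collagen, were highest in PEO1, at 18.1 to 19.1 and 3.66 to 5.06 FPKM. Of 18 windows of proteases and serpins, 14 were tested in the PEA pair. Of these 1 (7.14%) was called higher and 2 (14.3%) lower in PEA2, where all windows gave 11.2% and 1.42%. The 2 were adjacent windows of SERPINF2. SERPINB5, maspin, and SERPINB7 stood at 7.42 to 9.11 and 6.88 to 8.81 FPKM in PEO1, with at most 1.21 and 0.754 in A2780, CP70 and the PEA lines.

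Of 67 starts of S100 and epidermal differentiation genes, 63 were CpG-poor and 18 windows were members, of which 3 of 16 tested (18.8%) were called higher in PEA2, against 11.2% of all windows. These were SPRR2D, IVL and SPRR1B, on chromosome 1. SPRR2D (chr1:153013500-153014500) rose from 0.288, 0.249 and 0.479 to 2.69, 2.31 and 2.88 FPKM (log2 fold change 2.67, SE 0.28, adjusted p = 1.28e-19), above all other libraries, which reached at most 0.53. IVL, involucrin, rose from 0.352, 0.405 and 0.384 to 1.7, 2.14 and 1.91, a level also present in PEO1 and PEO4 at 1.40 to 2.50, and SPRR1B from 0.641, 0.436 and 0.623 to 2.97, 2.14 and 2.88. The log2 fold changes of IVL and SPRR1B, 2.07 and 2.05, fell to 1.70 and 1.68 on the common median, while with the median of their 5 Mb removed they were 2.62 and 2.61. SPRR1B also lost the call without PEA1 replicate 2, PEA2 replicate 1 or PEA2 replicate 3, at 1.90, 1.97 and 1.99. SFN, the 14-3-3 protein sigma, had 5.28 to 6.38 FPKM in PEO4 and 3.34 to 4.28 in PEO1.

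Of 126 starts of cytokines, chemokines and their receptors, 94 were CpG-poor, and 28 windows were members. In PEA2, 4 of 26 tested were called higher and none lower, and in PEO4 3 of 22 were called lower and none higher. The shares are 15.4% and 13.6%, where all windows gave 11.2% and 5.78%. TSLP, an epithelial cytokine (chr5:110406600-110407600), rose from 0.128, 0.218 and 0.288 to 2.53, 2.2 and 2.71 (log2 fold change 3.08, SE 0.31, adjusted p = 1.83e-21), and with its 5 Mb median removed the change was 0.69. IL7R, the interleukin 7 receptor (chr5:35856900-35857900), rose from 0.449, 0.405 and 0.479 to 2.75, 2.49 and 2.75 (log2 fold change 2.34, SE 0.27, adjusted p = 5.14e-17), with 1.97 on the common median. TSLP, on the same chromosome, lost its call with the 5 Mb median removed, and the value of IL7R under that setting is not given here. CXCL8, interleukin 8 (chr4:74605500-74606500), fell from 2.33, 2.01 and 2.01 in PEO1 to 0.0581, 0.24 and 0.349 in PEO4 (log2 fold change -2.93, SE 0.40, adjusted p = 4.65e-08). The last PEO4 values rest on 1 to 7 reads.

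Of 54 windows of interferon response and antigen presentation genes, 1 of 49 (2.04%) was called higher in PEA2, and 2 of 52 (3.85%) lower in PEO4, against the same 11.2% and 5.78%. CD74, the chaperone of MHC class II (chr5:149791500-149792500), fell from 3.95, 4.54 and 4.35 to 0.465, 0.624 and 0.598 (log2 fold change -2.73, SE 0.24, adjusted p = 2.20e-12), while PEA1 and PEA2 were at 2.21 to 4.27. CIITA, the activator of MHC class II genes, had windows at 2 adjacent positions of the grid, with 6.81 to 7.99 and 4.97 to 6.58 FPKM in PEO1 and 1.22 to 2.79 and 1.51 to 2.02 in PEO4. Their log2 fold changes were -1.92 and -1.65 and passed no call. PLSCR1, a scramblase induced by interferon, had 32.7 to 35.8 FPKM in PEO1 and 14.6 to 15.6 in PEO4.

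Drug and metal handling genes had 42 member windows, with 3 of 36 (8.33%) called higher and 1 lower in PEA2, and 1 of 39 (2.56%) lower in PEO4, all windows being at 11.2%, 1.42% and 5.78%. SLCO4C1, an organic anion transporter (chr5:101631600-101632600), rose from 2.05, 2.62 and 2.4 to 12.8, 9.77 and 10.7 (log2 fold change 2.19, SE 0.23, adjusted p = 2.20e-20), a change that was 1.82 on the common median and 0.12 with the 5 Mb median removed. SULT1A2, a sulfotransferase with near-identical copies nearby whose reads are therefore uncertain, rose from 0.256, 0.156 and 0.384 to 3.52, 2.66 and 2.26. CYP4F3, a leukotriene hydroxylase, had 7.58 to 13.8 FPKM in the PEO lines and at most 1.26 elsewhere. TMEM205, a membrane protein linked to cisplatin handling, had 14.1 to 17.1 FPKM in PEO4 and 8.69 to 10.8 in PEO1, which passed no call in the pair. Of the 39 tested, 0 were called higher in PEO4 than in PEO1, where all windows gave 2.72%. Of 12 windows of DNA repair genes, 11 were tested in the A2780 pair. Of these 0 were called higher and 1 (9.09%) lower in CP70, where all windows gave 0.428% and 0.369%. The PEA and PEO pairs held no call of this list. MUS81, an endonuclease of stalled forks, had 2.12 to 2.86 FPKM in A2780 and 6.74 to 9.17 in CP70, a log2 fold change of 1.54 that passed no call.

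The 26 windows of replication-dependent histone genes held no call in any pair, and 9 of them (34.6%) were called higher in PEO4 than in the other lines, where all windows gave 11% and members 7.12%. Their median log2 fold change was 1.05 in the PEO pair, where all windows had -0.30, and -0.69 in the PEA pair, where all windows had 0.31. H2BC3 (chr6:26043300-26044300) had 4.05, 5.5 and 3.9 FPKM in PEO1 and 12, 12.3 and 11.2 in PEO4, and at most 0.575 elsewhere. H3C3 (chr6:26045100-26046100) had 3.54, 3.58 and 3.79 and 7.38, 9.02 and 7.62, and at most 0.53 elsewhere. H2BC10 had 11, 12.8 and 10.0 in PEO4 and 2.31 to 4.86 in the PEA lines and PEO1, and H3C12 had 4.42, 5.66 and 4.48 in PEO4. The 26 windows lie on 3 chromosomes in clusters, so they are not independent. With the 5 Mb median removed, the differences of H2BC3, H3C3, H3C12 and H2BC10 to the other lines fell from 4.05, 3.70, 2.89 and 2.66 to 2.90, 2.55, 1.75 and 1.51.

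Zinc finger genes had the most windows of any list, 136. In the PEO pair 2 of 135 (1.48%) rose and 3 (2.22%) fell, where members gave 0.829% and 1.74% and all windows 2.72% and 5.78%, and of the latter 2 were adjacent windows of ZNF727 and 1 was ZNF98, which fell from 5.97, 6.46 and 6.8 to 0.698, 1.34 and 0.747. In the PEA pair 1 of 121 (0.826%) was called higher, where all windows gave 11.2%. In the A2780 pair ZNF254 was the 1 call of 93 (1.08%), where 0.369% of all windows were called lower. Of 38 windows of ribosomal protein genes, MRPL28 was the 1 call in a pair, lower in PEA2 (1 of 37, 2.7%, and 1.42% of all windows). RPL35A was highest in PEO1 at 7.80 to 9.60 FPKM. Of 407 starts of olfactory and taste receptors, 406 were CpG-poor and 2 windows were members, with OR56B1 at 2.09 to 2.35 FPKM in PEO4. Germline and oncofetal genes had 3 members and no call in a pair. Blood cell markers had 5 members, of which 1 of 5 tested (20%) was called higher in PEA2, where all windows gave 11.2%. It was ARHGDIB, which is also used outside blood, at 3.46 to 3.63 against 0.685 to 0.833 FPKM. Its log2 fold change of 2.06 was 0.27 with its 5 Mb median removed. Endothelial markers had 3 members with no call. Among markers of neural, muscle and liver cells, 1 of 3 tested (33.3%) was called lower in PEO4, where all windows gave 5.78%. This was ACTC1, cardiac actin, which fell from 4.05, 4.1 and 4.57 to 0.465, 1.73 and 0.797. Without PEO4 replicate 1 it was at -1.76. SYT1, of synaptic vesicles, had 24.1 to 24.7 FPKM in PEO1 and 17.3 to 20.5 in PEO4, and at most 6.14 elsewhere.

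The sequence of the promoters, which the rule did not use beyond its GC and CpG, was searched for 5 motifs. The 300 bases from 250 before to 50 after the canonical start were read on both strands for TGANTCA, for CCAAT, for GGAATG, which is a TEAD type, and for CCGGAAG, and for TATAAA on the gene's strand from 40 to 20 bases before the start. Motifs may share bases and were counted independently. Of the promoters of members, 3.52% held TATAAA, 8.09% TGANTCA, 39.2% CCAAT, 12.9% GGAATG and 15.8% CCGGAAG. All 18643 canonical promoters gave 3.996%, 5.34%, 35.7%, 11.2% and 14.2%. Of the 4710 CpG-poor starts whose window is not in the table, 9.38% held TATAAA and 2.02% CCGGAAG. Among CpG-rich promoters 1.58% held TATAAA and 18.7% CCGGAAG, which contains a CpG.

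Members with different motifs differed in how many lines they were open in. Of 93 member windows with TATAAA, 35 (37.6%) were open in 1 line and 6 (6.45%) in all 6, against 15.9% and 18.3% of members without it. Of 219 with TGANTCA, 6.85% were open in all 6 lines, against 18.9%. With CCAAT the share open in all 6 was 21.8% against 15.4%, with CCGGAAG 28.9% against 15.8%, and with GGAATG 17.05% against 18.05%. These shares are a description, since members with and without a motif also differ in GC and CpG: TGANTCA was in 11.95% of the promoters low in both measures and 4.24% of those low in GC alone. They also differ in level, on which a share at a fixed 2 FPKM depends. With TATAAA the median was 0.90 FPKM in A2780 and 2.73 in PEO1, against 1.30 and 4.49 without it. With CCGGAAG it was 1.71 and 5.96, against 1.21 and 4.14. In PEA2 all of these groups had medians of 1.997 to 2.07.

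**Figure D5:**
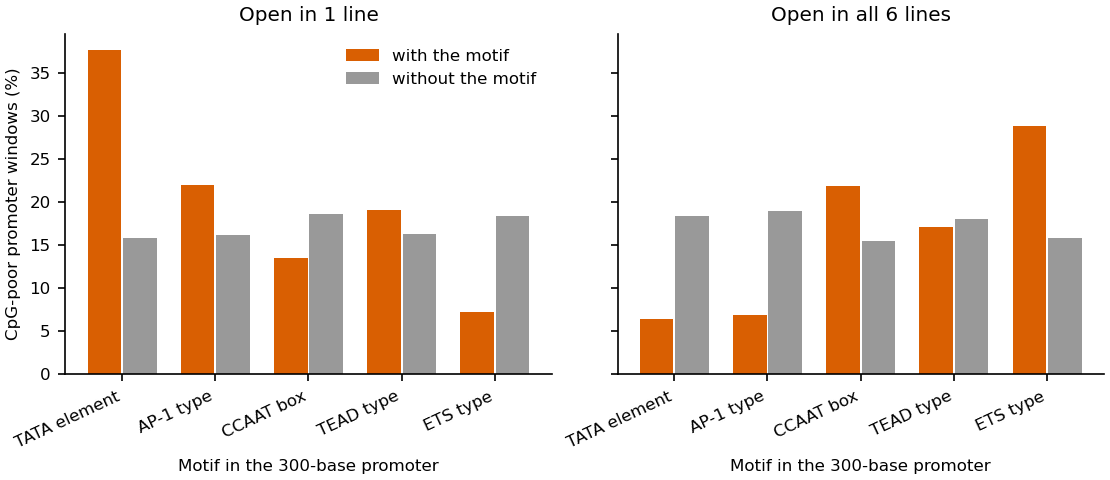
Share of CpG-poor promoter windows (vertical axis, %) open in 1 line (left) or in all 6 lines (right), with each motif in the 300-base promoter (orange) or without it (grey). The TATA element goes with 37.6% against 15.9% open in 1 line, and the ETS type with 28.9% against 15.8% open in all 6 lines.

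In the PEA pair, 10 of 78 members with TATAAA that were tested were called higher in PEA2 and none lower, against 78 and 17 of 2357 without it. With TGANTCA, 18 of 189 were called higher and none lower, against 70 and 17 of 2246. The shares higher, 12.8% with TATAAA and 9.52% with TGANTCA, stand beside 11.2% of all windows and 3.61% of members, and the motifs are not read as a mark of gains in PEA2. The median log2 fold change was 0.04 with TATAAA and -0.07 without, and 0.21 with TGANTCA and -0.08 without. The 10 with TATAAA, named after their values were seen, were C5orf46, CCL20, CD69, ESM1, FAM25A, IL7R, IVL, PRSS1, RSAD2 and SPRR2D. Besides SPRR2D, IVL, FAM25A, PRSS1, PTN and SPRR1B, the 18 with TGANTCA included VTCN1, an immune checkpoint ligand of epithelial tumours, at 0.587 and 3.16 FPKM, and ANKRD22, at 0.238 and 2.48. In the PEO pair, 3 of 207 members with TGANTCA (1.45%) were called higher and 10 (4.83%) lower. Without it, 18 and 34 of 2325 were called, and all windows gave 2.72% and 5.78%. The shares with TGANTCA were thus below those of all windows. With CCGGAAG, 3 of 414 (0.725%) were called higher and 3 (0.725%) lower in PEA2, where all windows gave 11.2% and 1.42%.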

How the data were processed

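Accessibility was measured by ATAC-seq in 18 libraries of 6 lines. The authors removed duplicates with Picard, aligned read pairs to hg19 with Bowtie2, kept unique alignments outside blacklisted and mitochondrial sequence, counted reads in windows and scaled them with edgeR (versions not given in the sources used here). The deposited FPKM values are the authors' RPM divided by the window length in kilobases, and the windows start every 900 bp, so neighbours overlap at their edges. All values (100%, within 0.1 of a read) were whole multiples of 1 read, which gave library totals of 8963079 to 60435027 reads. That scaling leaves the share of reads outside windows in each value. Intervals and floors cover counting error only.

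Starts were the canonical ones of GENCODE release 44 on GRCh37. Promoter sequences were credited to GRCh37 and read on the gene's strand. Near-identical copies, such as PRSS1, SULT1A2, SPRR2D, histone and zinc finger genes, are uncertain because only unique alignments were counted. Pairs were fitted with limma 3.58.1 in R 4.3.3 (trended eBayes) on log2(FPKM + 0.1) for windows with a mean above 1 FPKM over 6 libraries, lines over 18 libraries with no filter, and differences between pairs over 12 libraries. Adjusted p-values are Benjamini-Hochberg over all windows tested. Tables and figures used Python 3.11.15, pandas 2.3.3, numpy 2.4.6, scipy 1.17.1 and matplotlib 3.10.9. The fits were tested on simulated data. Read counts of the libraries of a line were compared by a chi-square per window, which is near 1 with counting error alone. It was 1.069 to 1.095 in PEO1 and 1.094 to 1.333 in PEO4. In PEA1 it was 1.158 to 1.525, in PEA2 1.186 to 1.536, in CP70 1.155 to 2.097 and in A2780 1.536 to 1.954. No libraries of a line were identical.

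Named for each pair and direction, and for each line, were the 4 called windows with the largest change whose libraries did not overlap. Added were windows called alike in more than 1 pair, the 5 most even windows with every line at 5 FPKM or more, and leading members of lists by gene role. The members, lists and rule were chosen with earlier results of these data known. Alternatives were edgeR 4.0.16 on the recovered reads, other scalings, pseudocount and filters, the GC trend, the 5 Mb median, a replicate block, and each library left out. Some windows that the rule chose are not reported here.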

Additional observations from a re-analysis of the deposited data

Results flagged for a closer look

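Among windows already named, 27 are listed whose change in 1 pair differed from that in another. The limma test was of the difference itself, at a log2 difference above 2 in size and an adjusted p below 0.001. The 27 are not the total. Of all members tested, 7.26% were called for PEA against A2780, 4.42% for PEO against A2780 and 13.95% for PEA against PEO. In the same order all windows gave 12.8%, 8.12% and 26.6%. Windows named for a pair are listed with their largest called difference only. Each value below is the change in the first pair minus that in the second, and the pairs share no library. Most were named for a large change in 1 pair, which favours a difference from the other pairs, so the values are a description. PTN, COL22A1, PRSS37, ADGRF4 and CATSPERE were chosen for opposite calls in the PEA and PEO pairs, which fixed theirs. Groups of 3 libraries were not examined for outliers.

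Set against the A2780 pair, the PEO pair differed by -4.66 at MUC15, -2.72 at VWDE, -3.62 at TM4SF1, -4.63 at SCG5 and -3.34 at ZNF727. The PEA pair differed from the A2780 pair by -2.07 at ULBP2, 2.465 at GCA, 2.865 at ZNF254, 4.63 at NLRP10, -3.57 at SERPINF2, -3.01 at ALG1 and 2.02 at ZSWIM2.

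Between the PEA and PEO pairs, the windows that were more positive in the PEA pair were TMEM232 at 5.74, PTN at 5.70, COL22A1 at 5.27, PRSS37 at 5.16, PRSS1 at 4.78, ADGRF4 at 4.68, CATSPERE at 4.53, NPFFR2 at 4.005 and DMRT2 at 3.30. Those more negative were ZNF69 at -3.99, SLC39A4 at -3.525, ENSG00000289761 at -3.51, WDR97 at -3.245, MRPL28 at -3.19 and ATP5MC3 at -2.87. The causes of these differences were not tested.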

How the results depend on the processing

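The shares of members called depended on scaling, pseudocount and the strictness of the rule, and the causes were not tested beyond these settings. In the order CP70 higher and lower, PEA2 higher and lower, and PEO4 higher and lower, the reported shares were 0.404%, 0.151%, 3.61%, 0.698%, 0.829% and 1.74%. Median centring gave 0.05045%, 0.303%, 1.52%, 1.56%, 1.501% and 1.07%, quantile normalization 0.05045%, 0.252%, 1.40%, 2.05%, 1.34% and 1.11%, and a pseudocount of 1 gave 0%, 0%, 0.493%, 0.0821%, 0.198% and 0.355%. Removal of the 5 Mb median gave 0.05045% and 0.303% in CP70, 1.77% higher in PEA2, and 0.474% and 0.869% in PEO4. Removal of the GC trend gave 0.05045% and 0.252% in CP70, 1.89% and 2.38% in PEA2 and 1.34% higher in PEO4. Members low in GC and in the CpG ratio gave 1.17% and 0.389% in CP70, 10.1% higher in PEA2 and 3.64% lower in PEO4. With 1 library left out CP70 ranged from 0.205% to 0.561% higher and from 0.0996% to 0.205% lower, the lowest without CP70 replicate 1 and A2780 replicate 2. edgeR on the recovered reads gave 0.454%, 0.151%, 4.31%, 0.862%, 0.869% and 2.05%, and called 216, 153, 8612, 1165, 2300 and 5224 of all windows tested.

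For A2780, CP70, PEA1, PEA2, PEO1 and PEO4 against the other lines, median centring gave 0.590%, 2.47%, 1.03%, 0.812%, 0.701% and 1.33%, and a pseudocount of 1 gave 0%, 0%, 0.0738%, 0.1475%, 3.54% and 2.32%. Removal of the GC trend gave 0.369%, 0.738%, 1.22%, 1.11%, 1.365% and 1.29%. Quantile normalization gave 0.516%, 0.922% and 1.14% in the first 3 and 0.4795% in each PEO line. Removal of the 5 Mb median gave 0.516% in PEO1, 0.553% in PEO4 and CP70, 0.775% in PEA2 and 0.295% in A2780. The stricter rule gave 19.9% in PEO1, 5.69% in PEA2, 0.890% in PEA1, 0.534% in CP70 and 0% in A2780. CP70 ranged from 0.184% to 0.406% with 1 library left out, the highest without CP70 replicate 3. The share open in all 6 lines was 53.0% at 1 FPKM and 8.90% under the stricter rule. In the order of lines, the ratio to CpG-rich promoters was 58.7%, 55.5%, 59.9%, 73.9%, 55.9% and 50.9% by medians, and 2.285%, 1.85%, 2.34%, 3.53%, 2.56% and 1.915% under the stricter rule.

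Correlations of same-numbered libraries were -0.158 to 0.064, and 4 of 9 libraries correlated best with their own number. In the PEO pair every library did so, at 0.024, 0.031 and 0.038. Whether replicate numbers pair the libraries is therefore not settled, and the main fits did not use them. A fit with the replicate number as a block left the pair shares at 0.404%, 0.151%, 3.61%, 0.698%, 0.829% and 1.74%. Each number occurs once in each line, so such a block cannot change a fold change. The unchanged shares therefore do not show whether the numbers pair the libraries. Of 118 values of the 85 windows chosen for naming, 21 were called under every alternative run and 13 lost the call without 1 library. The 1 reversal was ACTC1 in PEO1 against the other lines, from 2.05 to -0.40 with the 5 Mb median removed. Depth limits low windows, since 1 to 5 reads stand behind the lower line of several named changes.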
